A study of Drosophila melanogaster with 16 samples.

Results

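Tsp42Ed and rost encode membrane proteins, and their RNA was measured in cardiac tubes dissected from adult male flies aged 40 and 10 days. On the arrays Tsp42Ed is transcript FBtr0086181 and rost is transcript FBtr0079782. They are 2 of 16637 transcripts, and each has 8 probes, or 16 of 132999 gene probes in all. Both genes had been called higher at 40 days on these same arrays and were picked by the study for a second measurement by RQ-PCR. Their values for 40 against 10 days are therefore given below as a description, with no test.

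All flies were males of the w1118, Canton S isogenic line, kept 30 to a batch (25°C, 60% humidity). Age was the difference between the groups, with 4 samples at 40 days and 4 at 10 days, named A to D, and 10 pooled cardiac tubes in each. Every sample was amplified and labelled once with Cy5 and once with Cy3, and each of the 8 arrays of 1 slide combined a sample of either age, labelled with different dyes. By the study's methods the amplification started from an oligo(dT) primer and was repeated before labelling. A tube pools several cell types, so fewer cells of a type and less RNA per cell cannot be told apart in these values. None of 52 listed markers of heart, muscle, fat body, haemocytes, nephrocytes, testis, gut and accessory gland could be named. Names came only from the study's list of probes it had called induced, so a missing name does not mean that the arrays lack the gene. The tissue was therefore not checked against its markers.

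Tetraspanins are small proteins that cross the cell membrane several times and gather partner proteins into membrane domains, where they act in adhesion, signalling and vesicle traffic. In Drosophila many of these genes lie together in a cluster, and Tsp42Ed is a member of it. rost (rolling stone), on arm 2L, encodes a membrane protein that the fly embryo needs when myoblasts fuse into muscle fibres. The adult fly heart is a contractile tube of muscle cells, flanked by pericardial nephrocytes and underlain by a layer of longitudinal muscle.

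The annotation lists 2 transcripts for Tsp42Ed and 3 for rost, and 1 of each could be named on the arrays. The names came from the study's list of called probes, so other transcripts of these genes on the arrays would not have been recognized. The probes are 60 bases long and are called here by the position of the probe in the transcript as the arrays give it, so P18 of Tsp42Ed lies at position 18. Some share bases. In Tsp42Ed the probes at 266 and 273 share 53 bases, those at 415 and 436 share 39, those at 436 and 487 share 9, and those at 210 and 266 share 4. In rost the probes at 299 and 344 share 15 bases and those at 344 and 394 share 10. Such pairs are not independent readings of the transcript. The probe sequences were not used here. For rost, the primers designed by the study for its RQ-PCR are shown because they define, beside the probes, what was read of this transcript; their place relative to the probes was not determined.
rost forward primer: gtgacctttgtgggcatctt
rost reverse primer: ggtgcccatgaggtgatatt

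The scanner intensities are not normalized. Gene probes had channel medians of 57.3 to 109.8 for 40-day and 81.2 to 102.9 for 10-day samples. The 95th percentile of the random control probes, used here as the limit of background, lay at 107.7 to 183.3 in 40-day channels and at 110.3 to 213.6 in 10-day channels. Between 22.6% and 29.0% of gene probes exceeded it at 40 days and between 22.1% and 29.7% at 10 days. The labels of the arrays and the normalized value table of the authors disagree on which samples shared an array. Set against the scanner channels, 8 of its 16 columns matched the channel that the labels name, and the other 8 matched a different channel, in each case of the same age and dye. Directions between ages do not depend on this. Levels per sample are therefore taken below from the value table with its own letters, as the geometric mean of the 2 dyes and of the probes. Ratios are taken from pairs of arrays (1 and 2, 3 and 4, 5 and 6, 7 and 8), called array pairs A to D after their labels. By the value table the 2 arrays of each 40-day sample belong to different array pairs, so the 4 ratios share samples and are not independent. The 10-day sample of arrays 5 and 6 is B in the value table and C on the labels.

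Tsp42Ed was higher at 40 days in every sample and, after normalization, on every array. Its normalized intensity was 9607, 10164, 10135 and 8060 in the 40-day samples A to D, against 3322, 1965, 2593 and 1690 in the 10-day samples A to D. The groups did not overlap, and the lowest 40-day sample had 2.43 times the level of the highest 10-day sample. Of all 16637 transcripts 3.29% had their 4 samples at 40 days above the 4 at 10 days. The log2 ratio of 40 to 10 days was 1.43, 2.06, 2.09 and 2.53 in array pairs A to D, with a mean of 2.03 ± 0.45 (SD, n = 4 array pairs), or 4.07-fold. It was above 0 on 8 of 8 arrays, where it ran between 1.19 and 2.70. On array 2 this direction rests on the normalization of the dyes. There each Tsp42Ed probe read higher on the scanner in the 10-day Cy5 channel than in the 40-day Cy3 channel. For P487 these readings were 15045 and 11560. The mean put Tsp42Ed at rank 35 of all transcripts by size of rise. The 40-day samples lay within 1.26-fold of each other and the 10-day samples within 1.97-fold.

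rost was higher at 40 days on average but not in every sample. Its normalized intensity was 438, 403, 309 and 762 in the 40-day samples A to D, against 177, 529, 171 and 199 in the 10-day samples A to D. The groups overlapped through the 10-day sample B, of arrays 5 and 6, which lay above 3 of the 4 samples at 40 days. It was 2.66 times the next 10-day sample. The log2 ratio was 1.12, 0.998, -0.08 and 1.52 in array pairs A to D, with a mean of 0.89 ± 0.68 (SD, n = 4 array pairs), or 1.85-fold. Array pair C, with arrays 5 and 6, was the pair below 0. On 7 of 8 arrays the ratio was above 0, with a range of -0.77 to 1.83. By size of rise rost was at rank 253. With only the probes above background, which leaves out P45, the mean was 1.02. Without the 10-day sample of arrays 5 and 6, the difference in the value table was 1.31 on the log2 scale, against 0.93 with it. Samples of the same age were spread more widely than for Tsp42Ed, by 2.47-fold at 40 days and by 3.09-fold at 10 days.

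**Figure D1:**
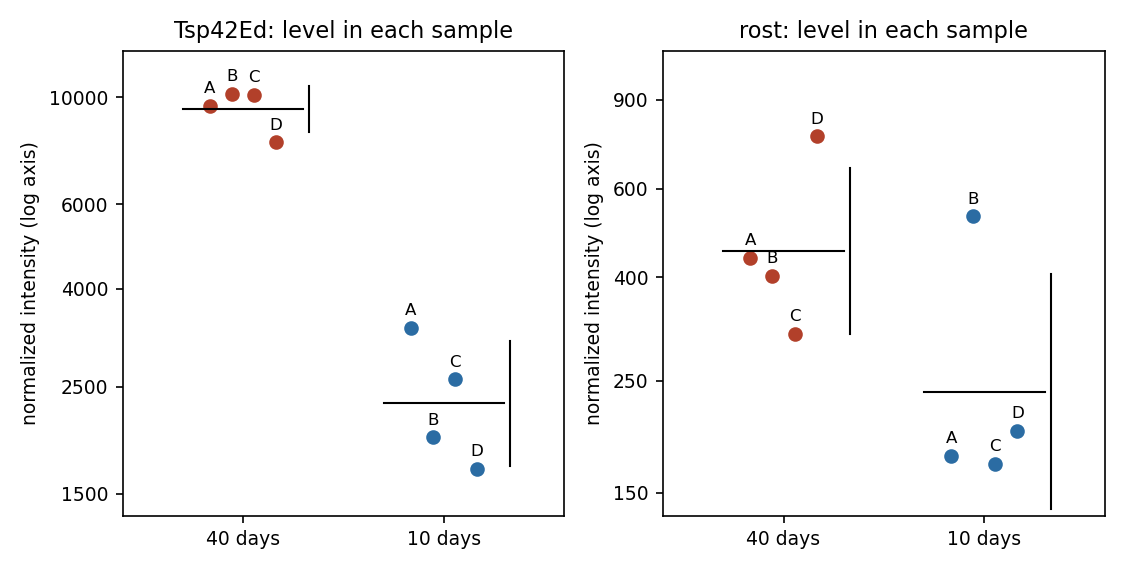
Level of Tsp42Ed (left) and rost (right) in each sample as normalized intensity on a log axis, with 40-day samples in red at the left and 10-day samples in blue at the right; letters name the samples of the value table, horizontal lines are geometric means and vertical lines span 1 SD on the log2 scale to each side (n = 4). The 4 samples of 40 days lie above all 10-day samples for Tsp42Ed, while the 10-day sample B lies among the 40-day samples for rost.

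The 8 probes of Tsp42Ed gave nearly the same ratio, except for P18. The probes from P210 to P487 had mean log2 ratios between 2.01 and 2.24, with an SD over these 7 probes of 0.07. P18 had 1.27 ± 0.51 (SD, n = 4 array pairs), which is 0.87 below the mean of the other probes. All 8 probes were above 0 in the 4 array pairs, and 11.4% of all gene probes were; nothing is read from this count, since the gene was chosen on this contrast. Each of the 8 probes exceeded background on 8 of 8 channels at 40 days and 8 of 8 at 10 days.

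P18 was spread more widely over the 40-day samples than the other probes, with sample C highest and D lowest as for P210 and P266. Its normalized intensity was 1316, 1308, 2441 and 617 in the 40-day samples A to D, against 755, 429, 642 and 350 in the 10-day samples A to D. The 40-day sample D lay below the highest 10-day sample, and the 40-day samples were spread by 3.95-fold. For the other 7 probes no 40-day sample overlapped with a 10-day sample, and the spread at 40 days was 1.12-fold to 1.31-fold. P487 gives an example, with 18255, 20513, 16874 and 19228 in the 40-day samples A to D, against 5128, 4300, 3920 and 3304 in the 10-day samples A to D. The share of all gene probes without overlap was not computed. Nothing is read from the missing overlap, since the gene was chosen on this contrast. At 10 days P18 was spread by 2.16-fold and the other probes by 1.55-fold to 2.61-fold. P18 is the probe nearest to the start of the transcript, and the next is P210. Whether this position relates to its values was not tested.

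The scanner readings of P18 show the same samples. In Cy5 it read 1075, 1270, 3347 and 455 on arrays 1, 3, 5 and 7, which held 40-day samples. In Cy3 it read 898, 2460, 749 and 2166 on arrays 2, 4, 6 and 8, which also held 40-day samples in that dye. Arrays 4 and 5, which the value table gives to 40-day sample C, were high, and arrays 6 and 7, which it gives to sample D, were low, each the extreme of its dye, so both dyes of these samples read alike. The dyes of sample A did not, with 1075 on array 1 and 2166 on array 8.

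For rost the 8 probes differed more from each other. P45 had a log2 ratio of -0.05 ± 0.07 (SD, n = 4 array pairs), and it exceeded background in 0 of 8 channels at 40 days and 0 of 8 at 10 days, so no level can be read from it at either age. P768, nearest to the other end of the transcript, had the largest ratio, 2.04 ± 1.16, which is 1.31 above the mean of the other probes. P299 and P344 had 0.49 ± 0.54 and 0.60 ± 0.75. P394, P471, P535 and P626 lay between 0.86 and 1.14. Only some 10-day channels exceeded background for several of these. P299 did so on 7 of 8 channels at 40 days and on 3 of 8 at 10 days, and P344 and P535 on 8 of 8 at 40 days and on 4 of 8 at 10 days. P394 and P768 exceeded it on all 16 channels.

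P768 of rost shows most clearly both the difference between ages and the sample that departs from it. Its normalized intensity was 4861, 4210, 2243 and 7625 in the 40-day samples A to D, against 715, 3073, 690 and 781 in the 10-day samples A to D. The 10-day sample B lay above the 40-day sample C, and the other 10-day samples lay below all 40-day samples. The log2 ratio was 2.62, 2.13, 0.38 and 3.02 in array pairs A to D. Within array pair C it was -0.80 on array 5 and 1.57 on array 6. These arrays held the same 10-day sample in opposite dyes, and by the value table the 40-day samples C and D.

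The same 10-day sample was the highest at that age for 7 of the 8 rost probes. For P394 it read 1195, against 209, 249 and 397 in the 10-day samples A, C and D. For P535 it read 701, against 145, 131 and 161 in those samples. In the scanner readings of P394 both dyes were high, with 681 in Cy3 on array 5 and 1500 in Cy5 on array 6, against 154 to 412 in the other Cy3 channels and 332 to 347 in the other Cy5 channels of 10-day samples. P45 was the exception, with 80.0 in sample B and 80.5, 87.5 and 90.3 in the 10-day samples A, C and D.

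**Figure D2:**
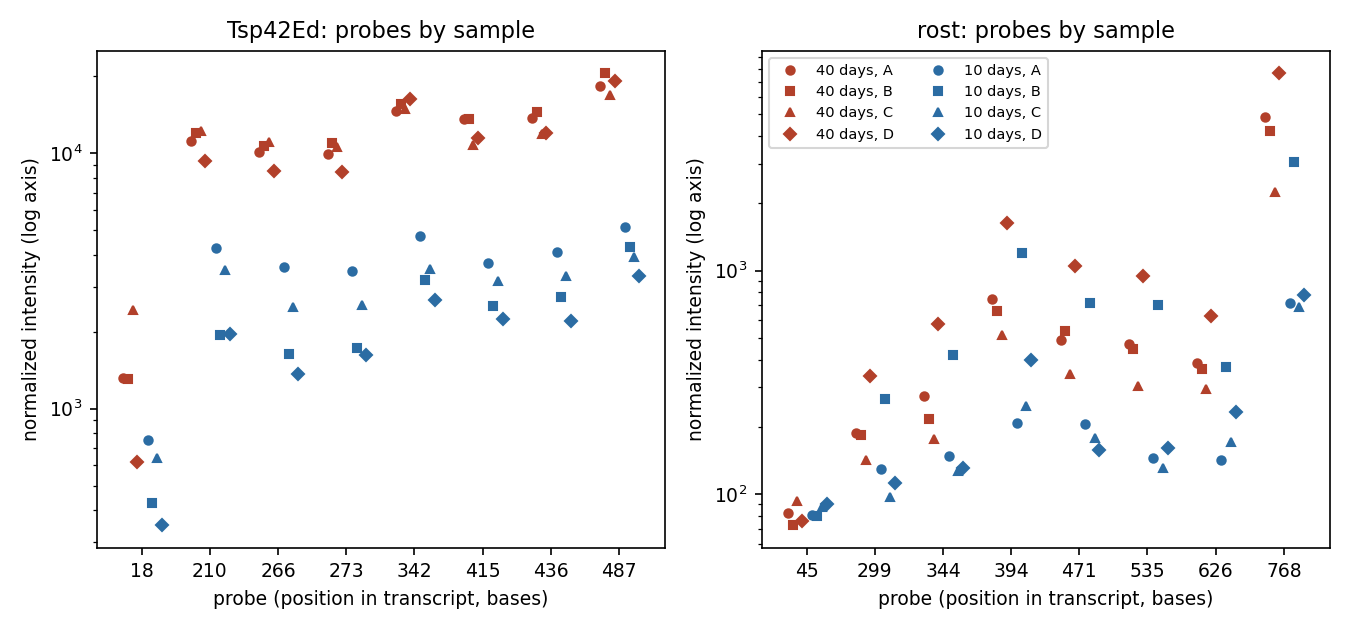
Normalized intensity of each probe of Tsp42Ed (left) and rost (right) in each sample on a log axis, with 40-day samples in red at the left and 10-day samples in blue at the right of each probe position, and 1 marker shape for each sample letter. Levels are compared within a probe and not between probes; the 10-day sample B (blue squares) lies among the 40-day samples for 7 rost probes, and the 40-day sample D (red diamonds) lies among the 10-day samples for P18 of Tsp42Ed.

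**Figure D3:**
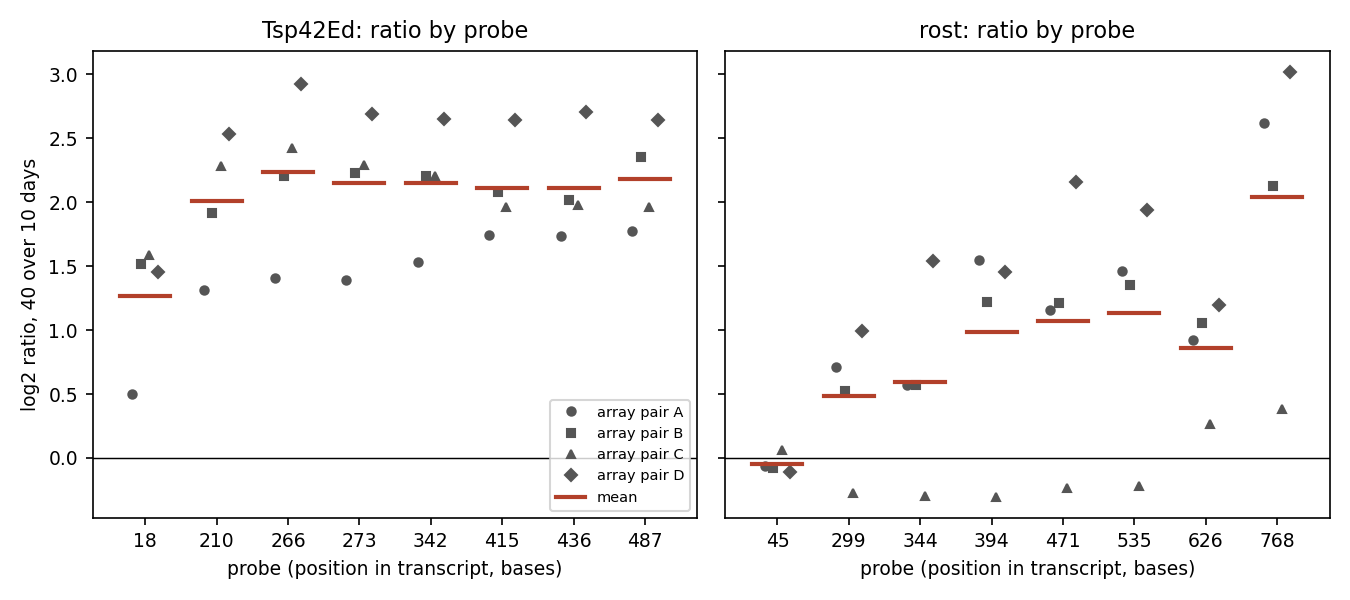
Log2 ratio of 40 to 10 days for each probe of Tsp42Ed (left) and rost (right), with 1 grey marker for each array pair A to D and a red line for their mean. The Tsp42Ed probes other than P18 have means of 2.01 to 2.24, while rost means run between -0.05 and 2.04 and array pair C lies below 0 for 5 of the 8 probes.

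How well probes of 1 transcript followed each other was also computed for 3668 transcripts with 8 probes, of which at least 4 were above background on 8 or more of the 16 channels. The SD of the mean log2 ratio over probes was 0.31 for Tsp42Ed and 0.60 for rost, against a median of 0.18 over these transcripts, which puts Tsp42Ed above 76.5% of them and rost above 94.96%. Correlations were then taken between probes over the 16 columns of the value table, which share 8 samples. With the mean of each dye removed, the mean correlation between probes was 0.94 for Tsp42Ed and 0.58 for rost, against a median of 0.59. Both genes were chosen for their difference between ages, which enters this correlation and can widen the SD over probes. Neither comparison is therefore read as a measure of probe agreement alone. Removing the mean of each age and dye leaves the differences between samples of an age. It gave 0.73 for Tsp42Ed and 0.58 for rost, against a median of 0.54.

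Within each gene 1 probe followed the others least. Without P45 the 21 pairs of rost probes correlated at 0.67 to 0.96 within ages, with a mean of 0.89. Their age ratios ran between 0.49 and 2.04, and those of P299, P344 and P535, which exceeded background on only 3 or 4 of 8 channels at 10 days, can understate the difference. Without P18 the 21 pairs of Tsp42Ed probes correlated at 0.57 to 0.98 within ages, with a mean of 0.83. P45 correlated with the other rost probes at a mean of -0.34, and P18 with the other Tsp42Ed probes at a mean of 0.43. P45 and P18 were set apart here after their values were seen.

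Dye was not used in choosing the genes and was tested over all gene probes with limma, on 4 log2 ratios of Cy5 to Cy3 in which age cancels. These ratios had been normalized within each array, which removes the general difference between the dyes. The test could therefore find only differences particular to a probe, and it does not show that dye had no effect. No probe passed an adjusted p under 0.01, which is 0% of 132999 probes, and 4324 probes, or 3.25%, had an unadjusted p under 0.05. Of the 16 probes of Tsp42Ed and rost 0 had an unadjusted p under 0.05, the smallest being 0.094 for P342 of Tsp42Ed (limma, n = 4). The dye difference was -0.23 to 0.20 for Tsp42Ed probes, with standard errors of 0.11 to 0.20, and -0.18 to 0.07 for rost probes, with standard errors of 0.11 to 0.25. The arrays of a pair may hold different 40-day samples, whose differences then add to these standard errors.

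The age ratio was also given by each dye orientation. For Tsp42Ed it averaged 1.97 with the 40-day sample in Cy5 and 2.09 with it in Cy3. For rost it averaged 0.83 and 0.95 in these orientations, with ranges of -0.77 to 1.83 and 0.62 to 1.23 over 4 arrays each. Before normalization the dyes differed more. P487 of Tsp42Ed read 17476 to 25697 in Cy5 and 11560 to 23182 in Cy3 at 40 days, against 6024 to 15045 in Cy5 and 1126 to 2492 in Cy3 at 10 days. After normalization it was the Tsp42Ed probe with the largest excess in Cy5, 0.20.

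**Figure D4:**
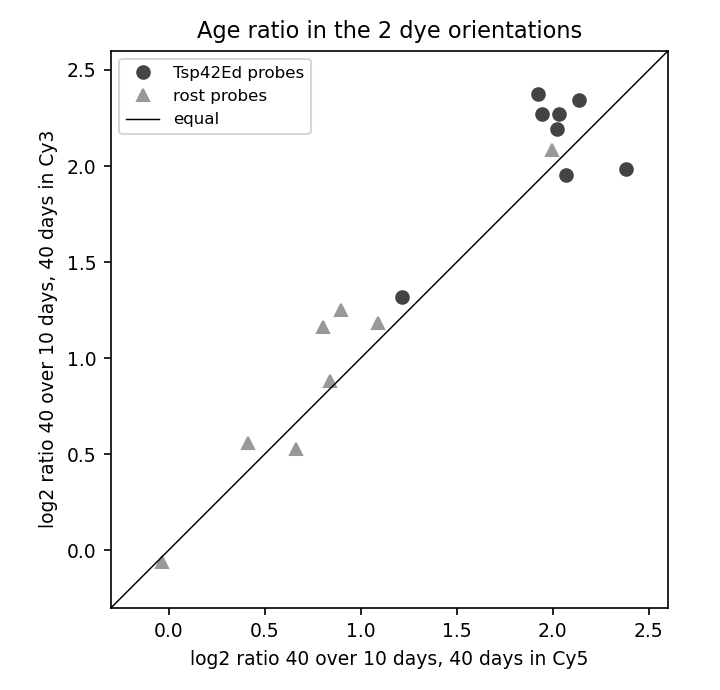
Mean log2 ratio of 40 to 10 days of each probe over the 4 arrays with the 40-day sample in Cy5 (x axis) and the 4 arrays with it in Cy3 (y axis), with circles for Tsp42Ed, triangles for rost and a line of equal values. All 16 points lie near the line, and the largest distance is that of P342, which had 1.92 with the 40-day sample in Cy5 and 2.37 in Cy3.

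Spots near the 16 probes on the arrays had ratios close to 0. The median log2 ratio of 40 to 10 days over the 107 to 210 other gene spots around each probe, up to 10 places away in either direction, was -0.04 to 0.04 for Tsp42Ed and -0.06 to 0.03 for rost.

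The tetraspanin genes with a name on the arrays had ratios above 0, as did every named transcript. Names come from the study's list of probes it had called induced, which covers 701 transcripts here, all above 0, so neither the direction of a named gene nor a call for it is independent evidence. Of 35 listed tetraspanin genes 9 could be named besides Tsp42Ed, and the others were not analysed here. All 9 had log2 ratios above 0, with a median of 1.55, against a median of 0.01 over all transcripts. In the fit over all transcripts with limma, 1 of the 9 was called higher at an adjusted p of 0.01 and 4 at 0.05. The background was 0.144% and 1.33% of all transcripts, and 3.42% and 29.2% of the 701 named ones. Nothing is read from these counts, and the genes are described by their values.

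The gene called at 0.01 was Tsp42Er, with a mean log2 ratio of 1.71. With any 1 of the array pairs A to D left out, 0 of the 9 genes and 0 transcripts in all were called at 0.01, and with the value table by letter 0 of the 9 were. Tsp42Er had 294, 402, 311 and 447 in the 40-day samples A to D, against 88.7, 89.0, 100.2 and 120 in the 10-day samples A to D. The groups were far apart, and the ratios of the array pairs ran between 1.53 and 1.97. Those called at 0.05 besides were Tsp42Ea, Tsp42Eb and Tsp74F, with mean log2 ratios of 2.01, 2.08 and 1.92. Tsp42Ea and Tsp42Eb lie in the same cluster as Tsp42Ed, on chromosome arm 2R, while Tsp74F lies elsewhere. In the Release 6 annotation Tsp42Ec and Tsp42Ee are the protein-coding genes next to Tsp42Ed, and Tsp42Eb lies further out on the side of Tsp42Ec. The 5 remaining genes, Tsp42Ee, Tsp2A, Tsp42Ei, Tsp42El and Tsp42Ef, had ratios of 1.55, 1.31, 1.14, 0.86 and 0.79. Tsp2A is known in the fly gut as a septate junction protein.

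**Figure D5:**
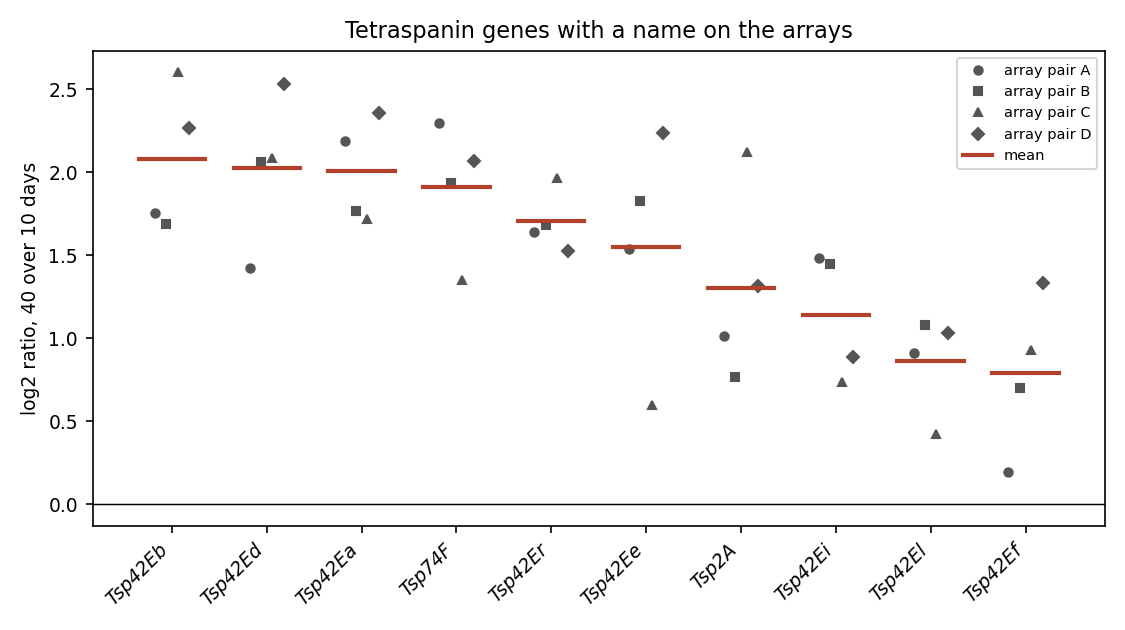
Log2 ratio of 40 to 10 days of the 10 tetraspanin genes that could be named, ordered by their mean, with 1 grey marker for each array pair A to D and a red line for the mean. All markers lie above 0, and array pair C is the lowest of the 4 pairs for Tsp42Ee, Tsp42Ei, Tsp42El, Tsp42Ea and Tsp74F.

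Among samples of the same age, several of these tetraspanin genes followed rost and not Tsp42Ed. With the means of age and dye removed, the correlation with rost over the 16 channels was 0.93 for Tsp42Ee, 0.91 for Tsp42El, 0.88 for Tsp74F, 0.79 for Tsp42Ea and 0.72 for Tsp42Ei, and the correlation of the same genes with Tsp42Ed was -0.50, -0.46, -0.66, -0.52 and -0.76. Tsp42Ee, the neighbour of Tsp42Ed, had 722, 462, 671 and 1320 in the 40-day samples A to D, against 167, 655, 147 and 207 in the 10-day samples A to D. As for rost, the 10-day sample B and the 40-day sample D stood above the other samples of their age. Tsp42Eb, Tsp42Ef, Tsp42Er and Tsp2A correlated with rost at -0.39 to 0.20 and with Tsp42Ed at -0.39 to 0.31. Tsp42Ed and rost themselves correlated at -0.48 within ages and at 0.49 with only dye removed. These are 16 channels of 8 samples, and the correlations are descriptions. Following rost within ages was not particular to tetraspanins, and the share of transcripts that did so at 0.9 or more is given below.

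Of the listed genes of myoblast fusion, only Rac2 could be named besides rost. For Rac2, a small GTPase that acts on actin, which was named through the same list, the mean log2 ratio was 0.88. It had 721, 709, 1568 and 533 in the 40-day samples A to D, against 574, 373, 441 and 374 in the 10-day samples A to D. The groups overlapped, and its correlation with rost within ages was -0.61.

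Among the 701 named transcripts, those most like Tsp42Ed over the 16 channels with dye means removed were CG12773, CG15347, CG14872, CG31955 and AnnIX, which encodes an annexin, with correlations of 0.98, 0.97, 0.96, 0.96 and 0.95. They were also the first 5 of all transcripts. The difference between ages, on which both members were chosen, enters the correlations with only dye means removed, so nothing is read from their order. Within ages the named transcripts most alike were of CG12773 at 0.80, CG7267 at 0.78 and AnnIX at 0.77, at ranks 31, 56 and 69 of all transcripts. The AnnIX transcript is FBtr0089517 in the first case and FBtr0089518 in the second. For rost they included eIF4G, a scaffold of translation initiation, Tsp42Ee, CG8594 and p120ctn, which encodes a catenin, with 0.98, 0.95, 0.94 and 0.93. Within ages they included eIF4G at 0.96 and the synaptotagmin gene Syt7 at 0.94, at ranks 14 and 48 of all transcripts. Of 3667 transcripts with 8 probes and at least 4 above background, 85, or 2.32%, correlated with rost at 0.9 or more within ages, against 4, or 0.109%, for Tsp42Ed.

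The 10-day sample of arrays 5 and 6, B in the value table, was the highest 10-day sample for 36.5% of 3668 transcripts, while samples A, C and D were so for 13.8%, 29.4% and 20.2%. It exceeded the next sample by at least as much as for rost for 1.74% of them, and samples A, C and D did so for 0.109%, 0.518% and 0.3%. Whether a difference in the cells of this sample or in its RNA moved with rost was not tested, since no markers could be named.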

How the data were processed

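Cardiac tube RNA of 4 samples at 40 days and 4 at 10 days was hybridized in 2 dyes to 8 NimbleGen arrays. The authors deposited unnormalized scanner intensity (NimbleScan 2.5.26) for every probe in both channels. They also deposited a table of intensity values after lowess normalization, on a linear scale, with column medians of 70.4 to 99.9. A genome build is not given in the sources used here. In limma 3.58.1 (R 4.3.3), background was corrected with normexp at an offset of 50, and loess was run on each array with weight 0 for the 4100 random control probes, which entered no test. Log2 ratios of 40 to 10 days were averaged over the 2 arrays of a label letter and over the probes of a transcript. The 4 ratios, which share 40-day samples by the value table and were fitted as if independent, were tested against 0 by lmFit and eBayes with Benjamini-Hochberg adjustment over 16637 transcripts at 0.01. Dye ratios were tested likewise over probes. On simulated data for 40 against 10 days over 16637 transcripts the procedure called 56% of 100 transcripts given a log2 change of 1, 77% of 100 given a log2 change of 2, and 2 that were not changed. The simulated ratios were independent, which the measured ratios are not by the value table, so these rates may not hold for the data. Tables were made with Python 3.11.15, numpy 2.4.6 and pandas 2.3.3.

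The members, lists and tests were chosen with earlier results of these data known. Named were Tsp42Ed and rost with all probes, up to 4 genes of each list past the threshold, or else the 2 with the smallest p, and the genes most like each member, of which 1 is not reported here; the tetraspanins named beyond this were named after their values were seen. Symbols were paired with transcript numbers through the study's list of called probes, used for names only. The genes beside Tsp42Ed were read from the RefSeq annotation of Release 6, with protein-coding genes ordered by their start. The study describes the 4 samples of each age as biological replicates. Nothing in the labels says that samples came from separate cultures, so p-values are not read as the spread between cultures. In the limma fits described above they measure the spread between the ratios of array pairs. By the value table these ratios share samples, so their spread is not that between independent samples. The number of arrays limits the precision.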

Additional observations from a re-analysis of the deposited data

Results flagged for a closer look

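In 5 of 54 groups of 4 values 1 value lay further from the others than Dixon's 95% limit for 4 values, a rule that by chance marks about 1 in 20 groups; probes of a gene are not independent. Levels and ratios were both on the log2 scale for this rule. For the level of rost at 10 days, sample B was far above samples A, C and D, with a gap of 0.867 of the range. The same sample was far above the others at 10 days for the rost probes P344, P535 and P768, with gaps of 0.865, 0.879 and 0.917 of the range. For P18 of Tsp42Ed, the ratio of array pair A, 0.50, was far below those of array pairs B to D, 1.51, 1.59 and 1.46, with a gap of 0.879 of the range.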

How the results depend on the processing

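The log2 ratio of Tsp42Ed stayed between 1.86 and 2.23 and that of rost between 0.68 and 1.31 in 16 alternatives each. All lay within 1 SD of the value above, but this was partly fixed in advance. Several alternatives, such as 8 arrays as independent replicates or separate channels, average the same ratios and cannot move the mean. Leaving out 1 of 4 ratios cannot move it by 1 SD. The range without each replicate letter was 1.86 to 2.23 for Tsp42Ed and 0.68 to 1.21 for rost. Without its most distant probe, Tsp42Ed had 2.14 and rost 0.73. Counts moved more. Against 24 transcripts higher, 7 lower and 1 tetraspanin gene called by limma, there were 37, 5 and 1 with median centring, 21, 3 and 0 with the median of the probes, 72, 13 and 4 with probes above the control probes only, 400, 119 and 8 with 8 arrays as independent replicates, 4, 0 and 0 with the value table by letter, and 222, 33 and 4 at a threshold of 0.05. Without the replicate block there were 136, 12 and 4 with separate channels, 50, 6 and 2 with the value table as 4 samples against 4, and 45, 5 and 2 with the scanner's own channels regrouped after the value table, an alternative chosen after seeing the data, as was leaving out the 10-day sample of arrays 5 and 6. Without any 1 of the replicate letters A to D the counts were 0, 0 and 0 by limma, where an unadjusted p under 0.05 was reached by 1610 to 2937 transcripts. The 9 tetraspanin genes, known only through the study's list, had an unadjusted p under 0.05 in these and all other fits, from which nothing is read. In the value table by letter 1785 transcripts had an unadjusted p under 0.05. The cause of these shifts was not tested. Samples that share a letter did not deviate together in every case (correlations of -0.04, 0.29, -0.13 and 0.38 for A to D as labelled), so the letters were not read as a pairing beyond the shared arrays. The dye difference was recomputed under 10 alternatives, with 0 probes called in each, and Rac2 was called in none of 15. Signal over background limits P45 of rost, and P299, P344 and P535 at 10 days.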
